A study of Mus musculus with 19 samples.

Results

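The proteasome genes described here are the mouse genes whose symbols begin with Psma, Psmb, Psmc, Psmd, Psme or Psmf followed by a digit. Pseudogenes were left out, and a gene needed 10 or more counts in at least 4 of the 19 mice. Of the 54232 gene identifiers counted, 49 carried such a symbol, 4 of these were pseudogenes, and 43 met the count minimum. The testis-specific alpha subunit Psma8 had 0 to 9 counts per mouse and the thymus-specific beta subunit Psmb11 had 0 to 5, and neither was kept. The 43 genes comprised 16 genes of the core (7 alpha ring, 7 standard beta ring and 2 immune beta ring genes), 17 genes of the cap (6 base ATPases, 3 base non-ATPases and 8 lid genes), 3 chaperones of cap assembly, 4 activators and the regulator Psmf1. The remaining 2 carry such a symbol but were placed in none of these classes. Psmc3ip encodes a factor of meiotic recombination and no subunit. Psme2b is a copy of the activator gene Psme2 whose reads cannot be separated with certainty from those of Psme2.

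Striatal RNA of 6-month-old mice on the C57/BL/6 background was sequenced from 7 WT mice and from 4 mice of each KI genotype, named KI-96, KI-571 and KI-FL. KI-FL mice are HD140Q knock-in animals, in which the endogenous Htt gene carries an expanded CAG repeat and expresses full-length mutant huntingtin (HTT). In KI-96 and KI-571 mice, CRISPR/Cas9 truncated that knock-in allele, leaving a short N-terminal piece of mutant HTT, shorter in KI-96, that still holds the polyQ repeat. According to the methods, the KI-96 and KI-571 animals were heterozygous, so they also had a normal Htt allele, and WT mice carried no mutant allele. The zygosity of the sequenced KI-FL mice is not given in the sources used here. The labels gave neither sex nor sacrifice batch.

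The proteasome degrades proteins tagged with ubiquitin. Its core is a barrel of stacked alpha and beta rings, with the proteolytic sites of Psmb5 (chymotrypsin-like), Psmb6 (caspase-like) and Psmb7 (trypsin-like) facing the inside, and the cap recognizes the ubiquitin chain, removes it, and unfolds and threads the substrate through its ring of ATPases. When proteasome activity falls, the transcription factor NFE2L1 raises many subunit genes together through antioxidant response elements in their promoters. Mutant HTT fragments accumulate in ubiquitin-positive inclusions in HD striatum.

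Each library held 12669809 to 26388542 counts on genes, and 18521 genes were tested, among them all 43 proteasome genes. All 12 listed markers of striatal projection neurons were detected, with a summed level of 5712 to 9614 CPM (counts scaled to the library's total and its normalization factor) over the 19 mice, while the 5 choroid plexus markers ranged from 35.6 to 5330 CPM. The choroid plexus sum had a median of 2648 CPM in KI-571, against 79.0 in WT, 41.3 in KI-96 and 128 in KI-FL. The 4 blood markers had medians of 223, 143, 90.9 and 68.1 CPM in the same order. The part of these tissues in the proteasome values was not tested. Htt averaged 178 ± 9.80 CPM in WT (SD, n = 7), 186 ± 40.1 in KI-96, 124 ± 15.3 in KI-571 and 158 ± 17.5 in KI-FL (n = 4 each). These counts do not separate the alleles. Xist was at 886 CPM or more in all 4 KI-96 mice, in 1 WT mouse and in 1 KI-FL mouse, and at most 5.05 CPM in the others. Before any result, 2 libraries have to be named. KI-96 replicate 3 had 24.2% of its reads outside annotated genes, against 11.1 to 16.0% in the other 18 mice, and KI-FL replicate 4 had 3186 tested genes at 0 counts, against 10 to 222 in the others. In tissue RNA, fewer cells of a type and less RNA per cell cannot be told apart. Nothing in the labels says that the mice of a genotype came from separate litters, so the p-values measure the spread between these samples.

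The promoters of 3 genes are printed because these genes had among the smallest p-values in KI-FL mice: Psmd4, the ubiquitin receptor of the cap, Psmb6, the caspase-like subunit, and Psmd9, a chaperone of base assembly. Psmd4 lies at chr3:95032694-95042614 on the minus strand, Psmb6 at chr11:70525367-70527858 on the plus strand and Psmd9 at chr5:123169413-123250131 on the plus strand (GRCm38, annotation GENCODE mouse release 21). Shown are the 250 bases before each RefSeq start site (GRCm38.p6), 5′ to 3′ on the strand of the gene, at chr3:95042615-95042864, chr11:70525107-70525356 and chr5:123227940-123228189. The windows of Psmd4 and Psmb6 lie at the start of the annotated gene. That of Psmd9 lies inside the annotated gene, far from its first base, so it is not the promoter of the whole gene model counted. Capitals mark matches to TGACNNNGC, the core letters of the antioxidant response element, or to CCAAT, the letters of the CCAAT box, each searched on both strands.
Psmd4: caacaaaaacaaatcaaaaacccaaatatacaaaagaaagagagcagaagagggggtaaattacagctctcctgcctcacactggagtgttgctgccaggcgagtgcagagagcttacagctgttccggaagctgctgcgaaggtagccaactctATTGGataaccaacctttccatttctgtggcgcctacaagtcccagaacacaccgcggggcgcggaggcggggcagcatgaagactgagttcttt
Psmb6: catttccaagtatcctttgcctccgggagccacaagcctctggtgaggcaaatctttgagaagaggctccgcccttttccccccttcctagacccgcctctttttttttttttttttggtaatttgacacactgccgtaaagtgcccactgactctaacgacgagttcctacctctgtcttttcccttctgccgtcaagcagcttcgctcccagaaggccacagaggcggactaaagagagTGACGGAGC
Psmd9: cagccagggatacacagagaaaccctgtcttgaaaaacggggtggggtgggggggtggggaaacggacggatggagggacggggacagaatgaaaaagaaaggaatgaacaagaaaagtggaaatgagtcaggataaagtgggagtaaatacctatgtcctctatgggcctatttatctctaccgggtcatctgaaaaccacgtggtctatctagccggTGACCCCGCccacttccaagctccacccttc
The windows of Psmb6 and Psmd9 held 1 TGACNNNGC match each and that of Psmd4 held none, but 1 CCAAT match. RefSeq promoter entries were matched for 37 of the 43 genes, in 40 windows. TGACNNNGC was in 5 of the 37 (13.5%), namely Psmb5, Psmb6, Psmc6, Psmd9 and Psmd12, against 11.5% of the 27025 genes with an entry. CCAAT was in 14 of the 37 (37.8%), against 37.5% of all genes. Both shares were close to those over all genes. CCAAT was in 7 of 13 core genes (53.8%) and in 4 of 14 cap genes (28.6%).

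The level of each gene was first compared within WT mice, as CPM per kilobase of exon. The length used was that of all annotated exons of a gene together, not of the transcript expressed in striatum. It was 1394 bases for Psmc5 and 5031 for Psmc2, and 899 for Psmb5 and 3421 for Psmb7. The order of genes and the ratios between them therefore depend in part on the annotation. In the alpha ring, which gates the barrel, levels ran from 16.3 CPM per kilobase for Psma2 to 54.5 for Psma6, a 3.33-fold range. In the standard beta ring, they ran from 13.8 for Psmb7 to 47.8 for Psmb4, a 3.45-fold range. The catalytic subunits were at 41.9 for Psmb6, 30.6 for Psmb5 and 13.8 for Psmb7. The base ATPases spread most widely among the larger classes. Psmc5 had the highest level of all 43 genes, 102 CPM per kilobase, and Psmc2, in the same hexamer, had 15.8. Base non-ATPases lay between 12.5 for Psmd1 and 46.4 for Psmd2, which are both large scaffold subunits, and the lid between 8.99 for Psmd11 and 38.7 for Psmd7. The median was 22.8 over the core and 20.7 over the cap.

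Of the genes outside the standard core and cap, only Psme3 exceeded these medians. The chaperones Psmd10, Psmd5 and Psmd9, which help to build the cap and leave it, had 9.09, 5.87 and 3.21 CPM per kilobase. Of the activators, which cap the core in place of the ATP-dependent cap, Psme3, the nuclear PA28 gamma, stood at 28.8, its cytoplasmic relatives Psme1 and Psme2, the PA28 alpha and beta pair, at 8.76 and 11.9, and Psme4 (PA200) at 7.11. Psme3 exceeded Psme1 by 2.76 to 4.31-fold in every WT mouse. Psmf1, the inhibitor PI31, had 4.08, Psmc3ip 2.25 and Psme2b 1.38. The immune subunit Psmb9, which takes the place of Psmb6 in cells stimulated by interferon, was the lowest of all at 0.375, with 15 to 38 counts per WT mouse. Psmb6 exceeded it by a median of 107-fold in WT (75.5 to 214-fold). Psmb10, the immune counterpart of Psmb7, was closer to its partner on this measure, at 9.76 against 13.8, and the ratio of Psmb7 to Psmb10 was 0.844 to 1.84 over the WT mice. Annotated exons total 1705 bases for Psmb10 against 3421 for Psmb7, and 3660 for Psmb9 against 1872 for Psmb6. Both ratios include these differences in length. The 10 microglial markers summed to 391 to 535 CPM in WT and 320 to 569 in the KI mice. Their part in the levels of Psmb9 and Psmb10 was not tested.

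**Figure D1:**
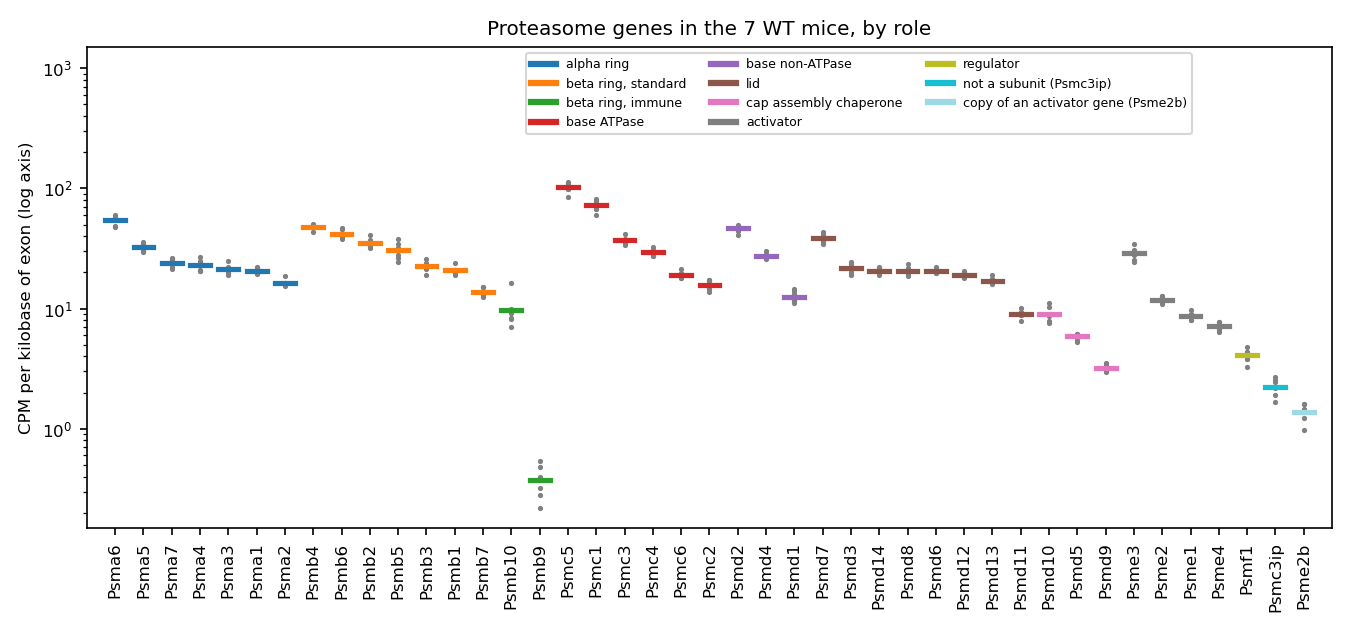
Level of each of the 43 proteasome genes in WT mice, ordered by role and, within a role, by level. The y axis is CPM per kilobase of exon on a log axis, gray points are the 7 mice and colored lines the means. Psmc5 is highest at 102 and Psmb9 lowest at 0.375.

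Gene by gene, the WT mice differed little from each other. The SD of log2 CPM over the 7 WT mice had a median of 0.11 over the 43 genes, against 0.22 over all tested genes, and 39 of the 43 were below the latter value. The range was from 0.05 to 0.42. The narrowest gene was in the lid, and the immune subunits were the widest, with 0.38 and 0.42. Part of the contrast goes with expression level: of the 13997 tested genes within the range of levels of the proteasome genes, the median SD was 0.18, and 37 of the 43 were below it. The genes shifted together between mice, however. Those below their WT mean numbered 10 of 43 in WT replicate 2 (47.9% of all tested genes) and 39 in WT replicate 6 (48.8%). Counts over the 43 genes are therefore not counts of independent genes. Proteasome genes together took 0.262 to 0.286% of the counts in WT mice and 0.285 to 0.296% in KI-FL mice. In KI-571 they took 0.277 to 0.292% and in KI-96 0.234 to 0.293%, the lowest share being that of KI-96 replicate 3.

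Each KI genotype was then compared with WT to ask whether proteasome transcripts differ in the striatum with full-length or truncated mutant HTT. None of the 43 genes passed the threshold (adjusted p under 0.05, edgeR quasi-likelihood test with Benjamini-Hochberg adjustment over 18521 genes) in any KI genotype. Over all genes, 0.027% were called in KI-96, 0.0324% in KI-571 and 0.194% in KI-FL. DESeq2 called 0 in KI-96, 0 in KI-571 and 2 in KI-FL mice, Psmd4 (adjusted p = 0.0240) and Psmc3ip (adjusted p = 0.0446), where it called 2.75% of all genes. At an unadjusted p under 0.05, 2 proteasome genes lay above and 2 below WT in KI-96 (all genes: 4.36% higher and 3.09% lower) and 4 were higher and 0 lower in KI-571 (all genes: 3.89% and 3.83%). In KI-FL, 9 were higher and 0 lower (all genes: 7.89% and 8.84%), which is 20.9% of the proteasome genes. The 3 comparisons share the 7 WT mice, so their values are not independent of each other. Within a comparison, the genes shift together in a mouse and are not independent either.

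The fold changes were small. In KI-FL mice they had a median of 0.14 on the log2 scale over the 43 genes and ran from -0.21 to 0.69, with a median SE of 0.12, while the median over all tested genes was -0.03. In KI-FL, 31 of the 43 genes were above 0 (72.1%), against 46.1% of all genes. In KI-571 the median was 0.07, and 31 were again above 0, against 48.3% of all genes. In KI-96 it was -0.01, and 18 were above 0 (41.9%), against 47.2% of all genes. Markers of other cell types were also read in KI-FL and WT. The 6 astrocyte markers summed to 2992 to 3413 CPM in KI-FL and 3223 to 3989.8 in WT, the 7 oligodendrocyte markers to 10025 to 11645 CPM in KI-FL and 10654 to 15156 in WT and the 4 blood markers to 40.5 to 99.5 CPM in KI-FL and 77.4 to 211 in WT. The medians of these sums were lower in KI-FL than in WT. Those of projection neuron markers (7529 against 7392 CPM), microglial markers (476 against 453) and endothelial markers (83.6 against 64.8) were higher. So were those of cortical neuron markers (38.9 against 38.3) and choroid plexus markers (128 against 79.0). All of these markers were detected, the ranges overlapped, and their part in the KI-FL values was not tested.

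**Figure D2:**
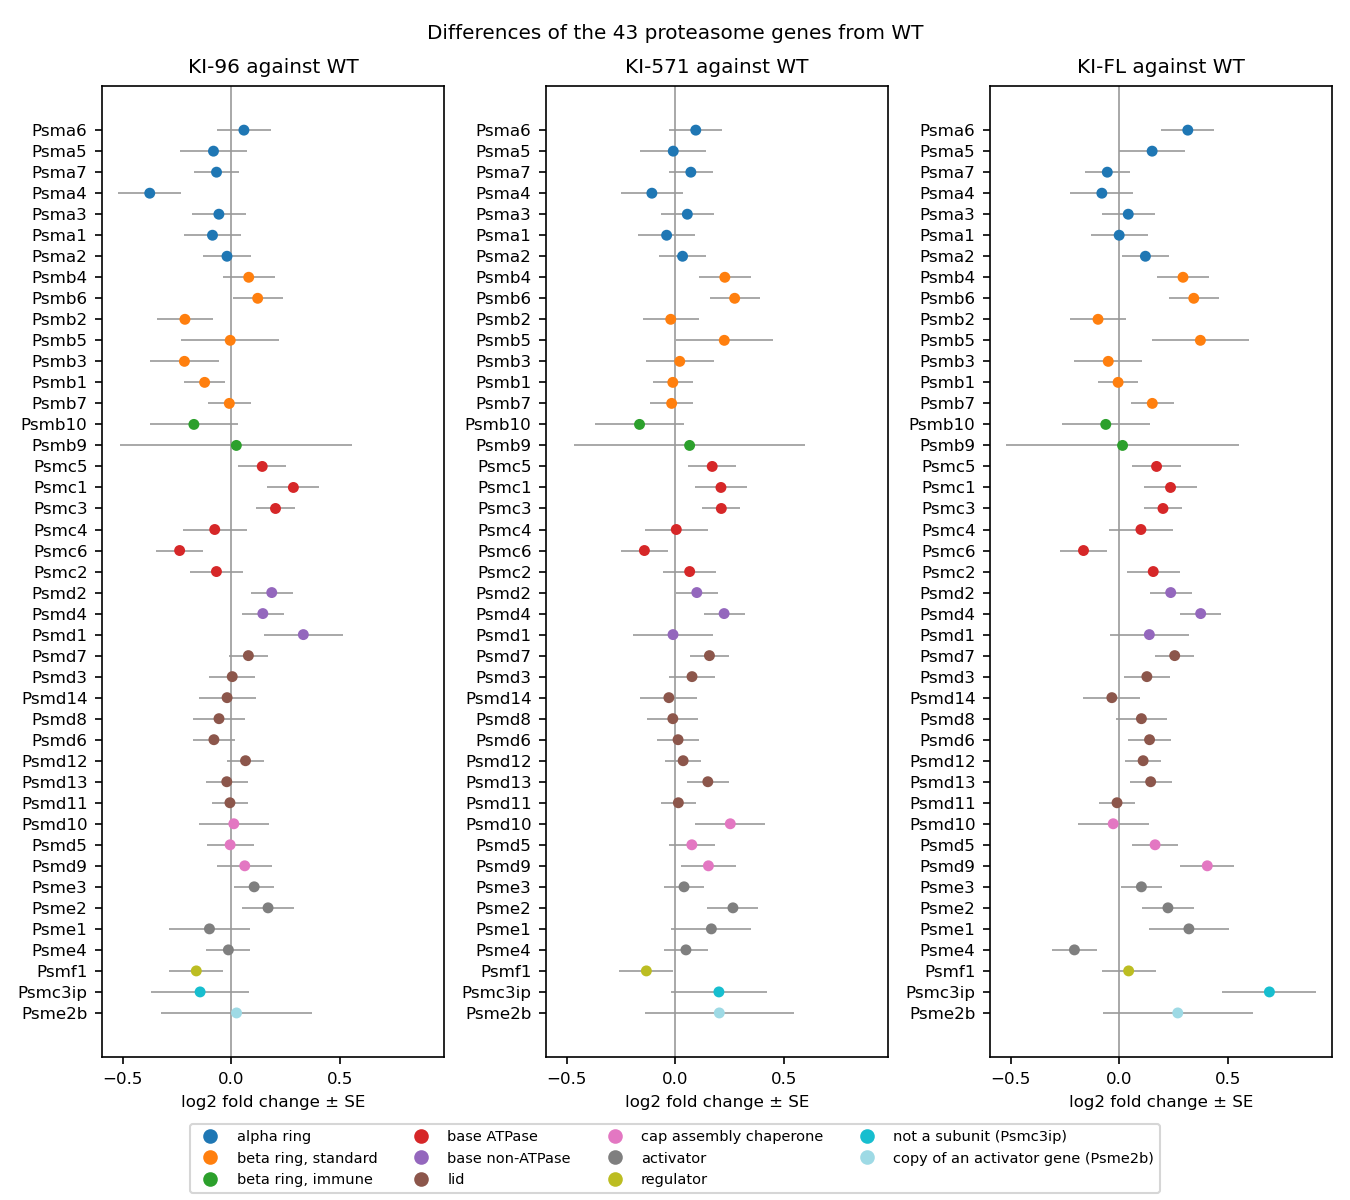
Log2 fold change (x axis) of each of the 43 proteasome genes against WT in each KI genotype. Points are edgeR estimates colored by role and bars are their SE, from all 19 mice. None passed the threshold. The farthest point to the right is Psmc3ip in KI-FL, at 0.69.

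Core and cap were compared next. In KI-FL mice, the median log2 fold change was 0.03 for the 16 core genes, with 9 above 0, and 0.14 for the 17 cap genes, with 14 above 0. In KI-571 it was 0.03 for the core, with 9 above 0, and 0.07 for the cap, with 13 above 0. In KI-96 it was -0.06 for the core, with 4 above 0, and 0.0039 for the cap, with 9 above 0. The core medians moved when 1 mouse was left out. Without KI-96 replicate 3, the core median in KI-96 was 0.06 and the cap median 0.10. Without KI-FL replicate 4, the core median in KI-FL was 0.16 and the cap median 0.11, so that the order of core and cap was not the same. In KI-571 the core median ran from -0.04 without KI-571 replicate 4 to 0.09 without KI-571 replicate 1.

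Values were then read mouse by mouse. The mean log2 CPM over the 17 cap genes ran from 6.22 to 6.41 in WT, with a median of 6.36. It was 6.51, 6.46, 6.42 and 6.50 in KI-FL replicates 1 to 4, all above the highest WT mouse, although replicate 3 hardly was. It was 6.48, 6.42, 6.19 and 6.41 in KI-96 and 6.51, 6.34, 6.38 and 6.39 in KI-571, and both of these overlapped WT. For the core, the mean was taken over 15 genes without Psmb9, which had 0 counts in 1 library. Relative to the WT mean, WT mice lay between -0.11 and 0.11. KI-FL mice were at 0.17, 0.12, 0.15 and -0.08, so that the first 3 were above every WT mouse and replicate 4 was within their range. KI-571 mice were at -0.11, 0.08, 0.07 and 0.11, within the WT range. KI-96 mice were at 0.04, 0.04, -0.62 and 0.11, of which replicate 3 lay far below all other mice.

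**Figure D3:**
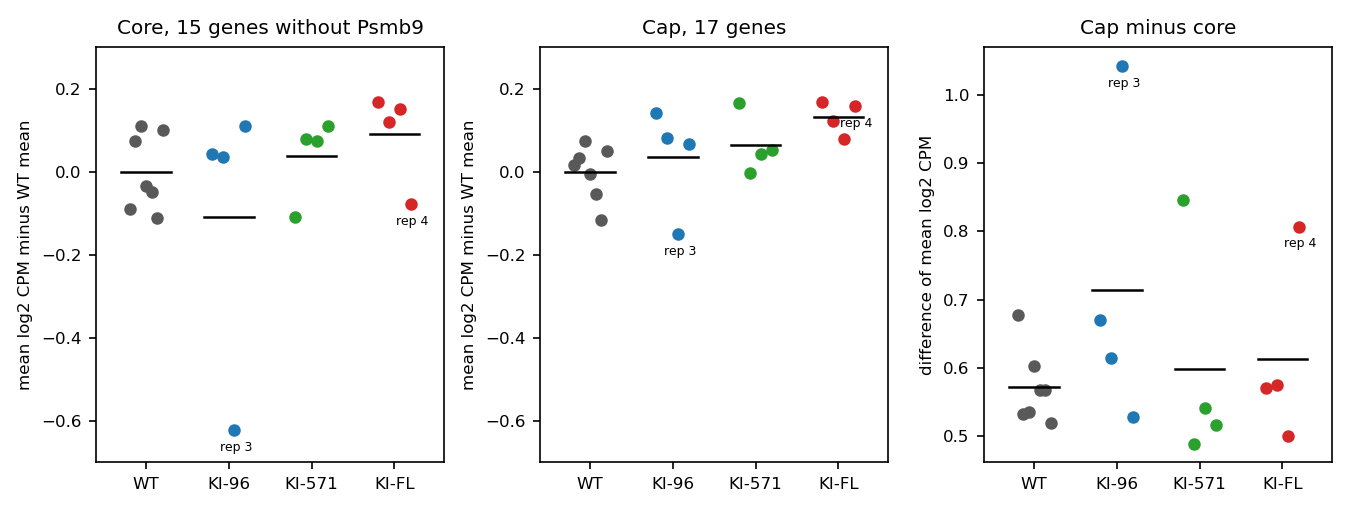
Mean log2 CPM of the core (15 genes, left) and the cap (17 genes, middle), each relative to the mean of the WT mice, and the difference of cap and core in each mouse (right). Points are mice, lines are genotype means, and the y axes are in log2 units. KI-96 replicate 3 lies at -0.62 for the core, and the 4 KI-FL mice lie above all WT mice for the cap.

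The balance of cap and core set 3 libraries apart. The cap mean exceeded the core mean without Psmb9 by 0.52 to 0.68 in WT mice. It did so by 1.04 in KI-96 replicate 3, by 0.85 in KI-571 replicate 1 and by 0.81 in KI-FL replicate 4, and by 0.49 to 0.67 in the other 9 KI mice. In KI-96 replicate 3, all 16 core genes were below the other 3 KI-96 mice (34.4% of all tested genes were), with a median difference of -0.63 on the log2 scale. The extremes were Psmb5, at 13.5 CPM against 25.1 to 42.6, and Psma5, at 21.7 against 44.8 to 49.4. Of the 17 cap genes, 12 were below and 2 above. Over all tested genes, 6168 of 18521 were above. Psmd1 was among the 2 cap genes above, at 186 CPM against 75.3 to 110 in the remaining 3 mice. This library was the lowest of all 19 mice for 23 of the 43 genes (53.5%), and for 15.6% of all tested genes. Over all tested genes, its difference from the other KI-96 mice had a Spearman rho of 0.26 with exon length across 18509 genes, and over the 43 proteasome genes 0.32. The same rho over the 43 genes was 0.03 in KI-FL replicate 4 and -0.05 in KI-571 replicate 1. Over all tested genes it was 0.13 and 0.14 in these libraries. Exons had a median total of 2335 bases in the core and 2820 in the cap. The part of exon length and of reads outside genes in the core values was not tested.

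In KI-FL replicate 4, core and cap parted in a different way. Of the core genes, 10 of 16 were below the other 3 KI-FL mice (45.4% of all tested genes were) and 3 above. Of the 17 cap genes, 9 were above and 4 below. Over all tested genes, 5567 of 18521 were above. Psmb9 had 0 counts, against 1.39 to 2.22 CPM in the other KI-FL mice. Psmb5 was at 19.9 CPM against 33.3 to 46.4, Psme1 at 12.5 against 25.9 to 31.2, and the chaperone Psmd10 at 8.03 against 13.5 to 16.9. Psmd4 was high, at 125 CPM against 87.4 to 92.4. The part of the missing genes of this library in these values was not tested.

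**Figure D4:**
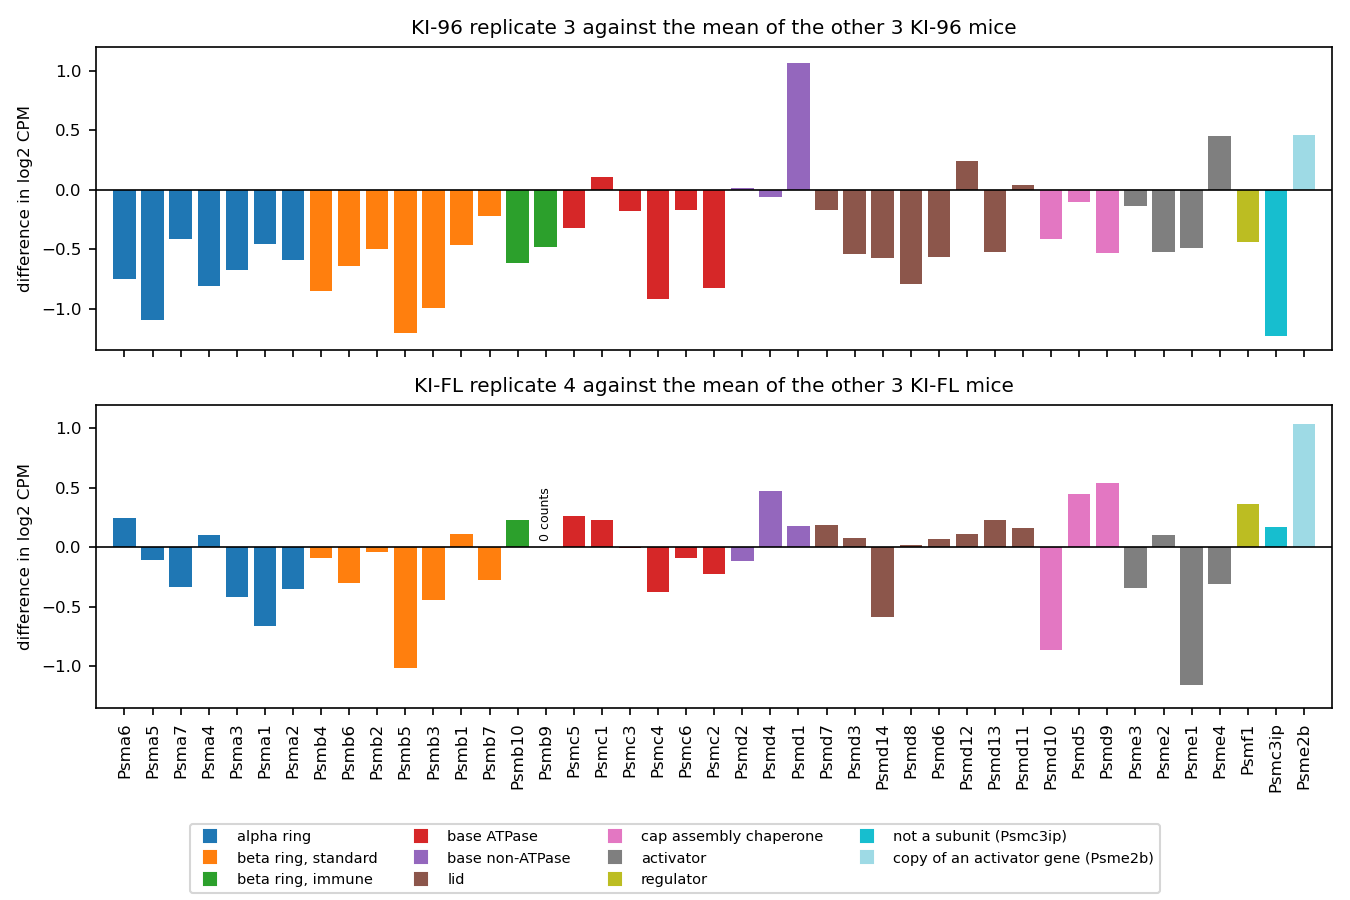
Difference in log2 CPM (y axis) of each proteasome gene between KI-96 replicate 3 (top) or KI-FL replicate 4 (bottom) and the mean of the other 3 mice of the genotype, colored by role. No bar is drawn for Psmb9 in the lower panel, where it had 0 counts. All 16 core genes are below 0 in the upper panel, and Psmd1 reaches 1.06.

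Among the alpha ring genes, Psma4 and Psma6 stood out. Psma6 was between 58.5 and 74.3 CPM (median 68.8) in WT and at 82.7, 77.7, 79.1 and 94.8 CPM in KI-FL mice, all above the highest WT mouse. The log2 fold change was 0.31 ± 0.12 (SE), and the adjusted p was 0.202. Psma6 overlapped WT in KI-96 and KI-571. Psma4 had the smallest p of the 43 in KI-96, with a log2 fold change of -0.38 ± 0.15 (SE) and an adjusted p of 0.629. It was between 48.8 and 63.2 CPM (median 54.6) in WT and at 44.0, 45.4, 26.8 and 52.0 CPM in KI-96 mice, where 3 of 4 lay below all WT mice and replicate 4 did not. Without replicate 3, the log2 fold change was -0.21. Psma2, the lowest of the ring per kilobase of exon though not in CPM, was between 56.8 and 68.7 CPM (median 58.7) in WT. It was at 68.4, 69.6, 68.9 and 54.1 CPM in KI-FL, where 3 mice were near the highest WT mouse. Replicate 4 was below all WT mice, and the log2 fold change of Psma2 was 0.12 ± 0.11 (SE). The other alpha subunits had log2 fold changes of -0.09 to 0.15 in the 3 comparisons with WT.

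In the standard beta ring, the proteolytic subunit Psmb6 ranked among the first 3 in KI-571. It was between 70.4 and 87.9 CPM (median 76.2) in WT, at 106, 92.1, 100.2 and 80.2 CPM in KI-571, and at 100.4, 111, 102 and 84.5 CPM in KI-FL mice. In each of these genotypes, 3 of 4 mice were above all WT mice. The log2 fold change was 0.27 ± 0.11 (SE) in KI-571 (adjusted p = 0.547) and 0.34 ± 0.11 (SE) in KI-FL (adjusted p = 0.153). In KI-96 it was 0.12 ± 0.12 (SE), with replicate 3 at 60.1 CPM below all WT mice and the other 3 above them. Psmb4, a structural subunit of the ring, was between 84.1 and 97.8 CPM (median 94.1) in WT and at 119, 108, 120.0 and 109 CPM in KI-FL mice, with no overlap, and its log2 fold change was 0.29 ± 0.12 (SE) (adjusted p = 0.222). It had values of 113, 115, 113 and 95.1 CPM in KI-571, of which 3 exceeded every WT mouse.

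The other catalytic subunits were less even between mice. Psmb5, the chymotrypsin-like subunit, was between 22.1 and 33.8 CPM (median 28.4) in WT and at 33.3, 42.6, 46.4 and 19.9 CPM in KI-FL, where 2 mice exceeded all WT mice and replicate 4 was below all of them. Its log2 fold change was 0.37 ± 0.22 (SE). Psmb7 had 47.3 ± 3.30 CPM (SD, n = 7) in WT and 52.6 ± 6.16 CPM (SD, n = 4) in KI-FL, with a log2 fold change of 0.15 ± 0.10 (SE). Psmb1, Psmb2 and Psmb3, which like Psmb4 have no share in the standard active sites, had log2 fold changes of -0.10 to -0.01 in KI-FL and -0.22 to -0.12 in KI-96. Psmb4, given above, was higher in KI-FL. In KI-96 replicate 3, Psmb1, Psmb2 and Psmb3 differed by -0.46, -0.49 and -0.99 in log2 CPM from the mean of the other KI-96 mice. The immune subunits were not distinguishable between genotypes. Psmb9 had 1.37 ± 0.411 CPM (SD, n = 7) in WT, 1.38 ± 0.369 CPM (SD, n = 4) in KI-96, 1.43 ± 0.825 CPM (SD, n = 4) in KI-571 and 1.39, 1.90, 2.22 and 0 CPM in the KI-FL mice, on 0 to 47 counts. The SE of its log2 fold changes was 0.53 to 0.54 against WT, so that small differences were not detectable at this depth. Psmb10 had 16.6 ± 5.22 CPM (SD, n = 7) in WT and means of 14.7 in KI-96, 14.8 in KI-571 and 15.9 in KI-FL.

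**Figure D5:**
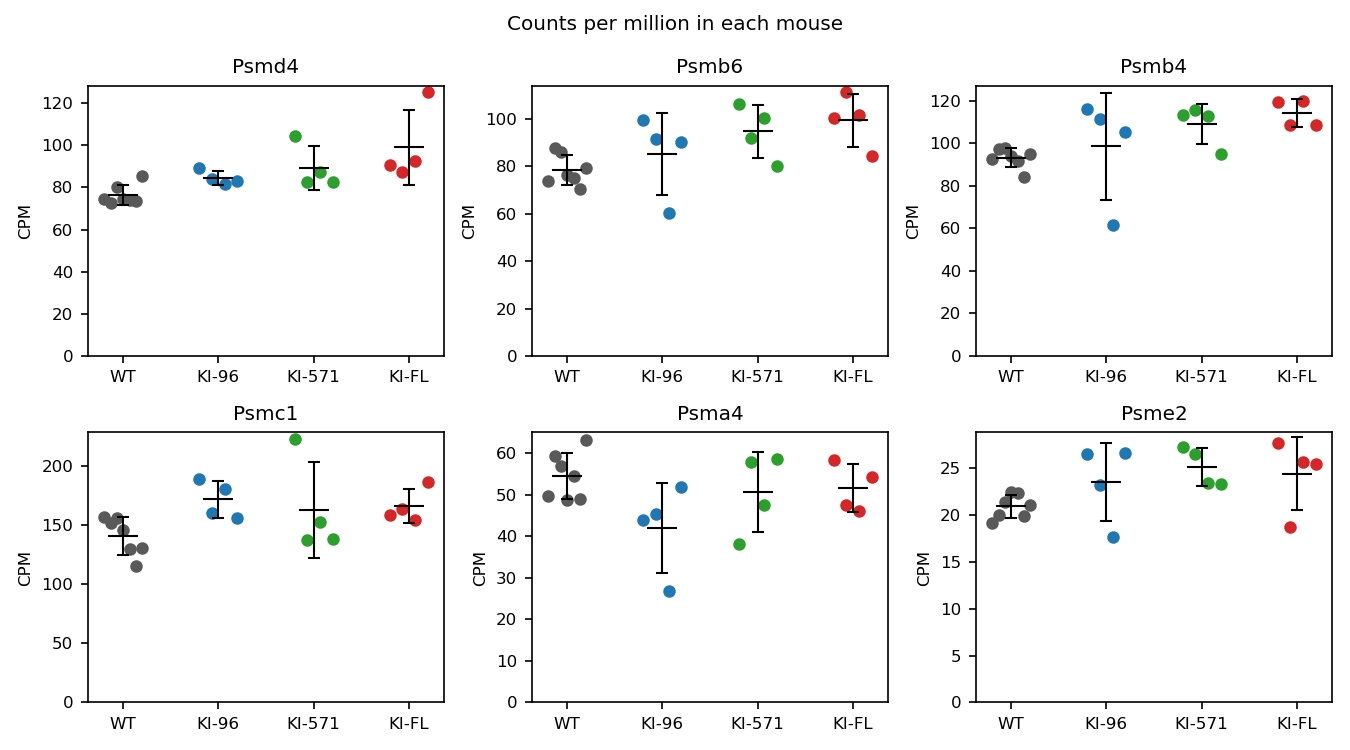
CPM of 6 proteasome genes in each mouse (y axis, from 0) by genotype. Points are mice, and black lines with bars are mean and SD, with 7 WT mice and 4 of each KI genotype. The KI-FL mice lie above all WT mice for Psmd4 and Psmb4, and the KI-571 mice for Psme2.

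In the cap, the base ATPases Psmc1, Psmc3 and Psmc5 had log2 fold changes above 0 in each KI genotype, none past the threshold. Psmc3 had a log2 fold change of 0.20 ± 0.09 (SE) in KI-96, 0.21 ± 0.09 (SE) in KI-571 and 0.20 ± 0.09 (SE) in KI-FL, with adjusted p-values of 0.650, 0.539 and 0.260. It was between 88.6 and 109 CPM (median 95.4) in WT, at 123, 106, 101 and 114 CPM in KI-96 and at 113, 103, 116 and 110.0 CPM in KI-FL, and overlapped WT in all genotypes. Without KI-571 replicate 1, its log2 fold change in KI-571 was 0.10. Psmc1 was between 115 and 157 CPM (median 146) in WT and at 189, 161, 181 and 156 CPM in KI-96, where 3 of 4 mice were above all WT mice. The log2 fold change was 0.29 ± 0.12 (SE) and the adjusted p 0.642. In KI-571, replicate 1 alone was far above, at 223 CPM, and the other 3 were at 138 to 153. Psmc6 was below 0 in each comparison, with -0.24 in KI-96, -0.14 in KI-571 and -0.17 in KI-FL. Psmc5, the highest ATPase per kilobase of exon in WT, had log2 fold changes of 0.14, 0.17 and 0.17. Psmc2, the lowest ATPase per kilobase though not in CPM, had -0.07, 0.07 and 0.16.

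The base non-ATPases were above WT in KI-FL in all 3 cases. Psmd4, which binds ubiquitin chains, had the smallest p of all 43 genes. It was between 72.8 and 85.4 CPM (median 74.3) in WT and at 90.7, 87.4, 92.4 and 125 CPM in KI-FL mice, so that every KI-FL mouse was above every WT mouse, and replicate 4 was the farthest. The log2 fold change was 0.37 ± 0.09 (SE) and the adjusted p 0.0800, just short of the threshold. Without KI-FL replicate 4 it was 0.24. In KI-571 mice Psmd4 was at 104, 82.8, 87.3 and 82.5 CPM, with a log2 fold change of 0.22 ± 0.09 (SE) (adjusted p = 0.548) that was 0.14 without KI-571 replicate 1, and in KI-96 mice at 89.4, 83.9, 81.6 and 82.9 CPM, with 0.14 ± 0.10 (SE). Psmd2, a scaffold that also takes up ubiquitin-like domains, was between 165 and 200.3 CPM (median 192) in WT and at 231, 222, 221 and 208 CPM in KI-FL, again with no overlap. Its log2 fold change was 0.24 ± 0.10 (SE) (adjusted p = 0.222). The scaffold Psmd1 was at 109.9, 85.9, 186 and 75.3 CPM in KI-96 mice, where the value of replicate 3 alone set the mean.

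The lid carries the deubiquitinase Psmd14. In KI-96 its 8 genes had log2 fold changes of -0.08 to 0.08, in KI-571 of -0.03 to 0.16 and in KI-FL of -0.04 to 0.25. Psmd7, the partner of Psmd14 and the highest lid gene per kilobase of exon in WT, had the highest of these values. It was between 78.3 and 98.5 CPM (median 89.4) in WT and at 109.7, 95.6, 97.5 and 114 CPM in KI-FL mice, where 2 of 4 were above all WT mice, and the log2 fold change was 0.25 ± 0.09 (SE) (adjusted p = 0.167). Psmd14 itself was at 58.3 ± 3.03 CPM (SD, n = 7) in WT and 57.0 ± 12.1 CPM (SD, n = 4) in KI-FL, with a log2 fold change of -0.04. Psmd11, the lowest lid gene per kilobase of exon in WT, was at 57.4 ± 4.35 CPM (SD, n = 7) in WT. It was at 56.9, 57.9 and 57.1 CPM in KI-FL, KI-571 and KI-96. Its SE of 0.08 was among the smallest of the 43.

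Of the assembly chaperones, Psmd9 was between 21.6 and 25.4 CPM (median 22.5) in WT and at 27.2, 31.4, 24.4 and 40.1 CPM in KI-FL mice. Of these, 3 were above all WT mice and replicate 3 was within their range. The log2 fold change was 0.40 ± 0.12 (SE) and the adjusted p 0.131. Without KI-FL replicate 4 it was 0.25. The annotation gives 25.5% of the exon bases of Psmd9 an overlap with a gene on the other strand, and the strand setting of the count is not given in the sources used here, so reads of both may be mixed. Psmd10 had log2 fold changes of -0.03, 0.25 and 0.01 in KI-FL, KI-571 and KI-96, and Psmd5 of 0.16, 0.08 and -0.01.

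Among the activators, Psme2 in KI-571 mice did not overlap WT. It was between 19.2 and 22.5 CPM (median 21.1) in WT and at 27.2, 26.5, 23.4 and 23.3 CPM in KI-571, with a log2 fold change of 0.26 ± 0.12 (SE) (adjusted p = 0.581). In KI-FL, 3 mice were above WT and replicate 2, at 18.8 CPM, was below. Its partner Psme1 was at 17.3, 25.1, 23.3 and 21.2 CPM in KI-571 and at 25.9, 26.9, 31.2 and 12.5 CPM in KI-FL, against 17.6 and 21.7 CPM (median 19.4) in WT. Psme3 was at 84.9 ± 10.3 CPM (SD, n = 7) in WT and 91.1, 87.3 and 91.3 in KI-FL, KI-571 and KI-96. Psme4 was at 59.6 ± 4.49 CPM (SD, n = 7) in WT and 51.6 ± 5.50 CPM (SD, n = 4) in KI-FL, with a log2 fold change of -0.21 ± 0.10 (SE), the lowest of the 43 in that comparison. Psmf1 had log2 fold changes of 0.04, -0.13 and -0.16 in KI-FL, KI-571 and KI-96.

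The last genes are those placed in none of the classes above. Psmc3ip was between 3.06 and 4.87 CPM (median 4.01) in WT and at 7.30, 5.70, 6.17 and 7.18 CPM in KI-FL mice, with no overlap and a log2 fold change of 0.69 ± 0.22 (SE) (adjusted p = 0.134). It rests on 33 to 122 counts per mouse, and 21.2% of its exon bases overlap Mlx on the other strand. Psme2b had 8 to 34 counts per mouse and a log2 fold change of 0.27 ± 0.35 (SE) in KI-FL.

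Counted over the 43 genes, 5 lay without overlap above WT in KI-FL (Psma6, Psmb4, Psmd2, Psmd4 and Psmc3ip), where 2.9% of all tested genes did. There was 1 such gene in KI-571 (Psme2; 0.88% of all genes) and 0 in KI-96 (0.599%). None lay below WT without overlap in any KI genotype, where 2.38%, 0.67% and 0.643% of all genes did in KI-FL, KI-571 and KI-96.

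The KI genotypes were also compared with each other. edgeR called 0 proteasome genes in KI-96 against KI-FL (0.0% of all genes), 0 in KI-571 against KI-FL (0.0864%) and 0 in KI-96 against KI-571 (0.0054%), and DESeq2 also called 0 in each. At an unadjusted p under 0.05, 3 were lower and 0 higher in KI-96 than in KI-FL (all genes: 3.77% lower and 5.13% higher), and 1 was higher and 0 lower in KI-571 than in KI-FL (4.67% and 4.23%). Between KI-96 and KI-571 there were 0 (3.14% higher and 2.38% lower). The 3 in KI-96 against KI-FL were Psmc3ip (-0.83 ± 0.25 (SE), adjusted p = 0.406), Psmd9 (-0.34 ± 0.14 (SE), adjusted p = 0.521) and Psmd4 (-0.23 ± 0.11 (SE), adjusted p = 0.551). Without KI-FL replicate 4 the values of Psmd9 and Psmd4 were -0.19 and -0.10, and without KI-96 replicate 3 that of Psmd9 was -0.21. In KI-571 against KI-FL, Psme4 came first, with 0.26 ± 0.11 (SE) (adjusted p = 0.529). It was at 56.2, 65.6, 58.2 and 66.4 CPM in KI-571 and at 55.5, 55.4, 51.8 and 43.8 CPM in KI-FL, without overlap. Psmc3ip and Psmd9 followed, with -0.49 ± 0.25 (SE) and -0.25 ± 0.14 (SE), the latter being -0.10 without KI-FL replicate 4. Without overlap, 0 genes lay higher and 1 lower (Psmc3ip) in KI-96 than in KI-FL (all genes: 1.91% and 1.25%), 1 higher (Psme4) and 1 lower (Psmc3ip) in KI-571 than in KI-FL (2.28% and 2.04%), and 0 either way between KI-96 and KI-571 (1.54% higher and 1.31% lower).

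Of the 43 log2 differences, 9 were above 0 in KI-96 against KI-FL (52.7% of all genes), 13 in KI-571 against KI-FL (52.8%) and 7 in KI-96 against KI-571 (49.2%). The median log2 difference between KI-96 and KI-FL was -0.15 for the core, with 15 of 16 below 0, and -0.07 for the cap, with 12 of 17 below 0, while the median of all genes was 0.02. With 1 mouse left out, the core median ran from -0.25 without KI-96 replicate 4 to -0.0030 without KI-96 replicate 3, and the cap median from -0.15 to -0.02 without the same mice. Between KI-571 and KI-FL it was -0.05 for the core (-0.11 without KI-FL replicate 4, -0.0005 without KI-571 replicate 1) and -0.07 for the cap (-0.09 to -0.04 with 1 mouse left out). In KI-96 against KI-571, Psmd1 ranked first, with 0.34 ± 0.21 (SE) (adjusted p = 0.980), and without KI-96 replicate 3 it was -0.0010. Psma4 and Psmd13, a lid subunit, followed, with -0.27 ± 0.16 (SE) and -0.17 ± 0.11 (SE), and were -0.10 and -0.06 without KI-96 replicate 3. The core median in this comparison was -0.11, with 15 of 16 below 0, and the range over the alternatives that left out 1 mouse was -0.18 to 0.03.

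Another 32 genes of the pathway were read beside the subunits: subunits without a Psm symbol, factors of core assembly, enzymes at the cap, transcription factors, ubiquitin genes, E1 enzymes and shuttle factors. All 32 were tested, and edgeR called 0 of them in each of the 6 comparisons. At an unadjusted p under 0.05, 6 were higher and 2 lower in KI-FL than in WT (all genes: 7.89% and 8.84%), against 0 and 2 in KI-571 (3.89% and 3.83%) and 2 and 3 in KI-96 (4.36% and 3.09%). Ubb, a gene of tandem ubiquitin units, was at 999.8 ± 111 CPM in KI-FL (SD, n = 4) and 742 ± 35.2 in WT (SD, n = 7), with a log2 fold change of 0.43 ± 0.14 (SE) and no overlap. The E1 enzyme Uba1 (0.33 ± 0.11), the segregase Vcp (0.23 ± 0.08) and the core assembly factor Psmg4 (0.51 ± 0.16) were also above WT without overlap, and Txnl1, a thioredoxin-like protein bound to the cap, was below WT without overlap (-0.22 ± 0.10). Over all genes, 2.9% lay above and 2.38% below WT without overlap in KI-FL. Psmg3, another core assembly factor, had -1.15 ± 0.52 in KI-FL, at 1.44 ± 1.07 CPM against 3.21 ± 1.18.

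Nfe2l1, which encodes the regulator of subunit genes, was at 352 ± 33.9 CPM in WT, 405 ± 47.3 in KI-96, 378 ± 50.03 in KI-571 and 383 ± 16.9 in KI-FL. Its log2 fold changes were 0.20 ± 0.10, 0.10 ± 0.10 and 0.12 ± 0.10, with adjusted p-values of 0.680, 0.934 and 0.558. Its protein is controlled by cleavage and turnover, which counts of RNA do not measure. The deubiquitinase Usp14, which trims chains at the cap, was at 83.9 ± 5.97 CPM in WT. It was at 72.1 ± 3.20 CPM in KI-96, 67.3 ± 9.56 in KI-571 and 75.7 ± 4.12 in KI-FL. The log2 fold changes were -0.22 ± 0.09, -0.32 ± 0.09 and -0.15 ± 0.09, with edgeR adjusted p-values of 0.629, 0.207 and 0.387. In KI-96 all 4 mice lay below WT without overlap, as 0.643% of all genes did.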

How the data were processed

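Striatal RNA was sequenced from 19 mice (7 WT and 4 of each KI genotype). The deposited values are whole-number read counts of each gene without normalization. In the study's methods, adapters were trimmed with BBduk, reads were aligned to GRCm38 with STAR and counted on genes with HTSeq. Tool versions, annotation and strand setting of the count are not given in the sources used here. A total of 4 columns outside these mice were not used, and 5 summary lines, which held 20.8 to 32.8% of the reads, were not treated as genes. Of the 54232 identifiers, 54165 were matched to names by GENCODE mouse release 21, without regard to version, and 1 gene of the family and 1 of the pathway list are not reported here.

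Counts were normalized with TMM, filtered with filterByExpr (minimum count 10, minimum total 15) and fitted over all 19 mice with edgeR 4.0.16 in R 4.3.3, with genotype only. The quasi-likelihood F-test compared genotypes, with Benjamini-Hochberg adjustment over 18521 genes and a threshold of 0.05. The study used DESeq2 with sacrifice batch, which the labels do not give, and left out 1 WT sample as an outlier. Which sample that was, and whether it is among these 7, is not given in the sources used here, so all 7 were used. Total counts of 12669809 to 26388542 per mouse set the precision, and the biological coefficient of variation was 0.240. log2 CPM used a prior count of 2. Replicates of a genotype differed by at least 8.60 times sampling noise (chi-square per degree of freedom). On simulated counts for KI-FL against WT over 18521 genes, 78% of 2-fold and 93% of 4-fold changes were called, and 5.52% of calls were false. Changes under 2-fold were not simulated, nor were libraries such as KI-96 replicate 3 and KI-FL replicate 4. The power for the smaller differences described here was therefore not measured.

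Genes named in full were the 3 with the smallest p in each comparison, the catalytic and immune subunits, activators and Psmf1, the highest and lowest gene of each class, members under the count minimum and members without overlap with WT. Others among the 43 were named after their values were seen. The members, classes and pathway list were chosen with earlier results of these data known. Alternatives were DESeq2 1.42.0, its size factors in edgeR, no filter, at least 10 counts in every mouse, Xist as a covariate, 1 surrogate variable (sva 3.50.0), only the groups compared, WT replicates 1 to 4 alone, each mouse left out and a replicate block. Leaving out KI-96 replicate 3 and KI-FL replicate 4 together was added after seeing the data.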

Additional observations from a re-analysis of the deposited data

Results flagged for a closer look

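In 80 groups of 4 to 7 mice (named genes and class means in each genotype), 8 held a mouse whose gap to the others passed Dixon's 95% limit, where chance gives about 1 group in 20, or 4. Of the 8, 4 were in KI-FL replicate 4, 3 in KI-96 replicate 3 and 1 in WT replicate 3. In KI-FL replicate 4, the mean log2 CPM of the core was 5.13 against 5.58 to 5.63 in the remaining 3. Psmb9, with 0 counts, was at -3.25 against 0.58 to 1.22, a value set by the prior count, Psme3 was at 6.25 against 6.59 in the other KI-FL mice, and Psmd4 was at 6.97 against 6.45 to 6.53. In KI-96 replicate 3, the core mean was 4.84 against 5.47 to 5.57, Psmd9 was at 4.19 against 4.69 to 4.76, and Psmc3ip at 0.92 against 2.06 to 2.27. In WT replicate 3, the immune subunit Psmb10 was at 4.81 against 3.6 to 4.10.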

How the results depend on the processing

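Of the 1200 recomputed values, 1148 kept direction and call, or stayed within 1.5 times a count or 1 SD. This SD, between mice of the mean log2 CPM, was 0.20 for the core and 0.08 for the cap. The core limit exceeds every core median, so the count says little about those medians. In KI-96 the core median of -0.06 became 0.06 without KI-96 replicate 3 and was still counted as kept. Many refits also left out a mouse of neither genotype compared. In KI-FL against WT, the number of proteasome genes called was 2 with DESeq2 (Psmd4 and Psmc3ip, adjusted p = 0.0240 and 0.0446, log2 fold changes 0.36 and 0.68), 1 when the model held those 2 groups alone (Psmb4, adjusted p = 0.0399) and 1 with KI-96 replicate 3 and KI-FL replicate 4 both left out (Psmb6, adjusted p = 0.0416). The cause was not tested. It was 0 with each mouse left out, in all 6 comparisons.

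Genes higher at an unadjusted p under 0.05 in KI-FL were 3 with WT replicates 1 to 4 alone (fewer samples), 14 with both libraries left out and 6 to 11 with 1 mouse left out, and lower were 1 with DESeq2, its size factors, no filter or at least 10 counts in every mouse, 2 with only the groups compared, and 0 to 1 with 1 mouse left out. In KI-571, higher were 2 without a filter, 1 with WT replicates 1 to 4 alone, 7 with both libraries left out and 0 to 7 with 1 mouse left out (0 without KI-571 replicate 1, 7 without KI-571 replicate 4), and lower 0 to 1. In KI-96, higher and lower were 1 and 0 with Xist as a covariate, 0 and 0 with WT replicates 1 to 4 alone, 5 and 0 with both libraries left out, and 0 to 5 and 0 to 4 with 1 mouse left out (5 higher without KI-96 replicate 3, 0 without KI-96 replicate 1 or WT replicate 6, 4 lower without KI-96 replicate 4). The cap median in KI-96 was 0.10 with both libraries left out and -0.041 to 0.10 with 1 mouse left out. Psmd1 in KI-96 against KI-571 reversed to -0.0010 without KI-96 replicate 3 and to -0.00086 with both left out, and was -0.0010 to 0.55 with 1 mouse left out.

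With the replicate number as a block, 0 genes were called, 3 were higher in KI-FL and 0 in KI-571, and 0 were higher and 1 lower in KI-96. Only 5 of 24 same-numbered pairs had a correlation over 0.1 (-0.13 to 0.29), so the numbers were not taken as pairs. Sex could not be separated from genotype in KI-96, where Xist was high in all 4 mice. Depth limits Psmb9 and Psme2b, with 0 to 47 and 8 to 34 counts.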
